A study of Mus musculus with 9 samples.

Results

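NRF2, the product of Nfe2l2, is the transcription factor that switches on antioxidant and detoxifying genes. The 10 genes described here are Nfe2l2 itself, its inhibitor Keap1 and 8 genes commonly used as NRF2 targets (Nqo1, Gclc, Gclm, Srxn1, Txnrd1, Slc7a11, Osgin1 and Gstm1). They were chosen by name, with earlier results of these data known, and all 10 were found among the 26683 genes of the count table. RNA was sequenced from whole mouse retinas in 9 libraries, 3 in each of 3 groups, all collected at postnatal day 17. Normoxic libraries came from mice without oxygen-induced retinopathy (OIR). In that model young mice breathe excess oxygen, which halts and prunes retinal vessels, and pathological vessels grow once they breathe normal air again. PBS libraries came from OIR mice given phosphate-buffered saline into the vitreous at postnatal day 15, and Gel libraries from OIR mice given the PCC1/PHCF hydrogel, which releases the plant polyphenol procyanidin C1, on the same day. The labels name no strain, sex, oxygen level or injection for the Normoxic mice. No group received the hydrogel without procyanidin C1, so drug and carrier cannot be told apart, and OIR and the saline injection cannot be told apart either.

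In unstressed cells the KEAP1 protein holds NRF2 and passes it to a CUL3 ubiquitin ligase for destruction. Oxidants and electrophiles modify cysteines of KEAP1, NRF2 then escapes, pairs with a small MAF protein and binds the antioxidant response element of its targets. That control acts on the protein, so the messenger RNA of Nfe2l2 and Keap1 does not measure NRF2 activity. The retina uses much oxygen and holds easily oxidised lipids, which is why these defences are studied there.

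The antioxidant response element is shown first because NRF2 binds its targets there, though the genes were not chosen by it. Its core, TGACNNNGC, was searched on both strands of RefSeq promoter windows (build GRCm38.p6, 250 bases before to 50 bases after an annotated start). Symbols matched 9 of the 10 genes, all but Gclc, with 12 windows between them. A match stood in 4 of those 12 windows, and in 12.4% of all 32851 windows. The sites are printed 5′ to 3′ on the strand that carries the match, which is in capitals.
Nfe2l2, chr2:75704895-75704903, minus strand, centred 236 bases before the start: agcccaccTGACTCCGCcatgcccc
Gclm, chr3:122245423-122245431, minus strand, 130 bases before: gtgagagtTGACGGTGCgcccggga
Srxn1, chr2:152105552-152105560, minus strand, 32 bases after: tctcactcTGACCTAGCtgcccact
Txnrd1, chr10:82859114-82859122, minus strand, 88 bases before 1 of its 3 starts: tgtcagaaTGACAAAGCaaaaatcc
The longer form TGACTCAGC, searched only with C after TGA, was in 0 of the 12 windows and in 0.454% of all windows. The AP-1 motif TGACTCA, which shares its first letters with the element, was in the windows of Osgin1 and Srxn1 and in 5.2% of all windows. None of the 4 element sites overlapped it. The Osgin1 site was centred 94 bases before the start, and Srxn1 had sites 99 and 42 bases before. On their other strand, the Osgin1 site and the Srxn1 site at 42 bases spell the longer form, but with G after TGA. That variant was not searched, so the share of all windows that holds it is not known. These matches describe letters in a short window and are not measured binding.

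The 250 bases before the start are printed for the 3 genes that rose in PBS (below), with matches to either motif in capitals. Nfe2l2 holds the element near the far end of its stretch. Osgin1 holds the AP-1 motif, where the other strand spells the longer element form with G after TGA, which was not searched. Gstm1, shown for the first listed of its 2 starts, has neither motif as searched.
Nfe2l2, chr2:75704664-75704913, minus strand: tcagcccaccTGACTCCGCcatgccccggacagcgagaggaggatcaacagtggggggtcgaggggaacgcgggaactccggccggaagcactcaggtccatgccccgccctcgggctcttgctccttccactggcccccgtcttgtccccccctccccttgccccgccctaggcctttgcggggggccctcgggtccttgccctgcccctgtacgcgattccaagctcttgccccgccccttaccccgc
Osgin1, chr8:119436897-119437146, plus strand: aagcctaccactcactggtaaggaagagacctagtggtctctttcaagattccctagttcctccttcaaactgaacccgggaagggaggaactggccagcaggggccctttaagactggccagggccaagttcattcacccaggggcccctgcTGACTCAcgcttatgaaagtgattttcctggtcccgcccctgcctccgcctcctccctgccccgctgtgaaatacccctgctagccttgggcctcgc
Gstm1, chr3:108017974-108018223, minus strand: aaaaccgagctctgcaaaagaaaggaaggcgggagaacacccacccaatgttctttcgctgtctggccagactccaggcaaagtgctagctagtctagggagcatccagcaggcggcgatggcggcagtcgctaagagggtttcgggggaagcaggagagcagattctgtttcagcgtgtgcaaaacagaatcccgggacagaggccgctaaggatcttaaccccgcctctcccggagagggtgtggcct

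The libraries held 29324142 to 35663470 counts each, so 1 CPM (counts scaled to a library total of 1e+06) rests on 29.3 to 35.7 counts. Because nothing in the labels ties replicates to separate animals, p-values speak only of the spread among these 9 libraries, which may be technical. Rod markers summed to 40800 to 58010 CPM in every library, so the labelled tissue was present throughout. PBS 3 stood apart: ribosomal protein genes took 2.68% of its counts against 1.08% to 1.66% in the other 8 libraries, and its counts differed from the other PBS libraries by gene length (Spearman -0.485 across genes, which are not independent replicates). Gel 1 stood apart in its group, with a chi-square per degree of freedom of 49.2 and 60.4 against Gel 2 and Gel 3 and of 11.8 between those. Pigment epithelium markers summed to 24.7 to 96.9 CPM in Normoxic, 58.1 to 205 in PBS and 146 to 234 in Gel.

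All 10 genes passed the filter on low counts. In PBS, 3 of the 10 genes rose over Normoxic and 0 fell, where edgeR called 6.34% of all 17362 tested genes, 4.31% higher and 2.03% lower. The 3 were Nfe2l2 (1.66-fold), Gstm1 (2.00-fold) and Osgin1 (2.32-fold). In whole retina, more RNA per cell and more cells of a type that expresses a gene cannot be told apart. Keap1 and both subunits of the enzyme that starts glutathione synthesis had folds of 0.945 (Keap1), 0.975 (Gclc) and 1.09 (Gclm) and did not pass the test. In Gel against PBS, 0 of the 10 genes were called, beside 0% of all tested genes. In Gel against Normoxic, 0 of the 10 were called, beside 1.41% of all genes (1.12% higher and 0.288% lower).

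**Figure D1:**
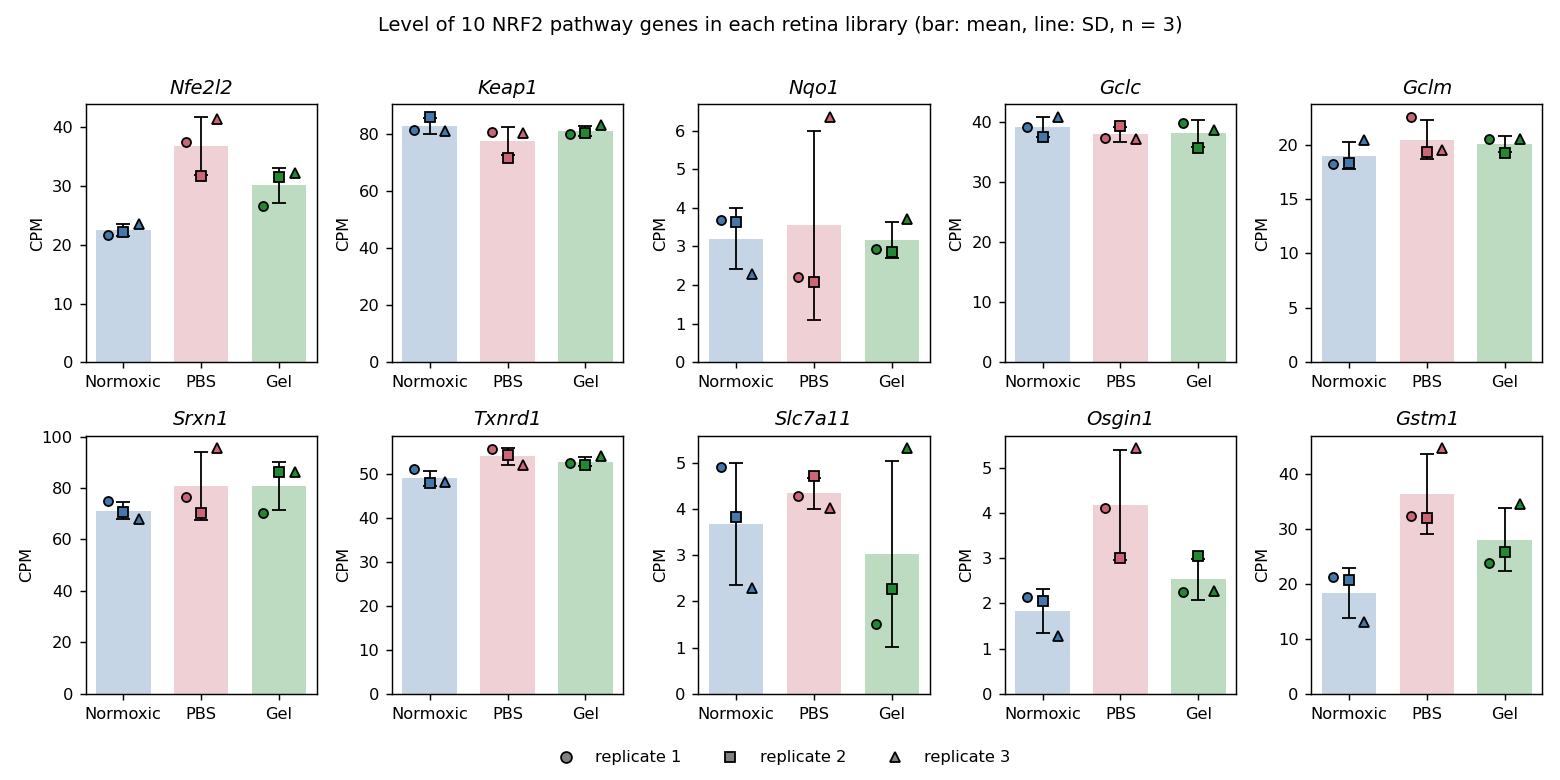
Level of the 10 genes in CPM on the vertical axis in each library, by group on the horizontal axis. Bars are means, lines are SD over 3 libraries, and symbols mark replicates 1, 2 and 3. Nfe2l2, Osgin1 and Gstm1 are higher in all 3 PBS libraries than in all 3 Normoxic libraries, and the Nqo1 value of PBS 3 (6.36 CPM) lies far above the other PBS values.

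Levels between genes were compared per length, in the authors' deposited FPKM (counts scaled to gene length and library total). The mean over 9 libraries ran from Srxn1 (22.8 FPKM) through Gstm1 (20.1), Keap1 (18.0), Txnrd1 (12.9), Gclc (11.0), Gclm (9.57), Nfe2l2 (7.81), Osgin1 (1.24) and Nqo1 (0.986) to Slc7a11 (0.392). The place of Gstm1 depended on the group: its mean was 13.4 FPKM in Normoxic, below Keap1 (18.5), and 26.5 FPKM in PBS, above Srxn1 (23.7). Its range over libraries (9.57 to 32.6 FPKM) overlapped those of the 6 genes from Srxn1 to Nfe2l2. Srxn1 (20.0 to 28.0 FPKM) lay above Keap1 (16.1 to 19.3) without overlap, Keap1 above Txnrd1 (11.9 to 13.8) and Txnrd1 above Gclc (10.2 to 11.7). The ranges of Gclc and Gclm (8.77 to 10.9 FPKM), of Gclm and Nfe2l2 (5.68 to 10.8) and of Osgin1 and Nqo1 (0.556 to 2.37 and 0.620 to 1.90) overlapped, so their order is not set. The transporter Slc7a11 and the quinone reductase Nqo1, both often used as readouts of NRF2, were thus among the 3 lowest of the 10 in these retinas, with 45 to 179 and 61 to 226 counts per library.

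The regulators came first. Nfe2l2 (Entrez 18024) stood at 21.7, 22.1 and 23.6 CPM in Normoxic libraries 1 to 3, at 37.6, 31.6 and 41.4 CPM in PBS and at 26.7, 31.6 and 32.1 CPM in Gel. The lowest PBS value lay above the highest Normoxic value, every Gel value lay above Normoxic, and Gel and PBS overlapped. The rise in PBS was 0.73 ± 0.14 on the log2 scale (SE, edgeR adjusted p = 0.011), from 22.5 ± 1.02 to 36.9 ± 4.92 CPM (SD, n = 3). Gel libraries averaged 30.1 ± 3.01 CPM, a log2 difference of 0.43 ± 0.14 from Normoxic (edgeR adjusted p = 0.175) and of -0.30 ± 0.14 from PBS (0.922 as edgeR adjusted p). Neither passed the test. The call of Nfe2l2 in PBS ended without Normoxic 1 (edgeR adjusted p = 0.0586) or Normoxic 2 (0.0577), with log2 values of 0.69 and 0.72.

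Keap1 (Entrez 50868), which encodes the sensor that holds NRF2 back, was at 81.5, 86.2 and 81.1 CPM in Normoxic, 80.8, 71.9 and 80.4 CPM in PBS and 80.0, 80.3 and 83.1 CPM in Gel. PBS 2 was the lowest library. The PBS values lay just below Normoxic without overlap (80.8 against 81.1 CPM at the nearest), but overlapped with it once libraries were scaled by TMM, a trimmed mean of ratios between libraries. The fold in PBS was 0.945 with a 95% interval of 0.813 to 1.10 (edgeR adjusted p = 0.652), and against PBS the Gel fold was 1.04 (0.898 to 1.21, edgeR adjusted p = 0.987).

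Gclc, Gclm and Slc7a11, which serve glutathione synthesis, did not pass the test in any of the 3 comparisons. Gclc (Entrez 14629) encodes the catalytic subunit of glutamate-cysteine ligase, the rate-limiting enzyme of glutathione synthesis, and stood at 39.1, 37.6 and 40.9 CPM in Normoxic, 37.4, 39.4 and 37.1 CPM in PBS and 39.9, 35.6 and 38.7 CPM in Gel. All 3 groups overlapped, and the PBS fold was 0.975 (95% interval 0.846 to 1.12, edgeR adjusted p = 0.839). Its modifier subunit, Gclm (Entrez 14630), was at 18.2, 18.3 and 20.4 CPM, then 22.6, 19.3 and 19.5 CPM, then 20.5, 19.2 and 20.5 CPM in the same order. PBS 1 was the highest library, the groups overlapped, and the PBS fold was 1.09 (0.912 to 1.29, edgeR adjusted p = 0.573). The groups of both subunits lay within the spread between libraries, and the upper limits of the PBS folds were 1.12 for Gclc and 1.29 for Gclm.

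Slc7a11 (Entrez 26570), the cystine importer that feeds glutathione synthesis, had few counts and scattered widely. It was at 4.91, 3.81 and 2.29 CPM in Normoxic, 4.27, 4.70 and 4.02 CPM in PBS and 1.51, 2.27 and 5.31 CPM in Gel. Gel 1 and Gel 3 were the lowest and the highest of all 9 libraries, so the Gel group spans the others. The Gel mean was 3.03 ± 2.01 CPM against 4.33 ± 0.344 CPM in PBS (SD, n = 3), a fold of 0.702 (95% interval 0.378 to 1.30, edgeR adjusted p = 0.987). Without Gel 3 that log2 difference went from -0.51 to -1.17 (edgeR adjusted p = 0.918), and against Normoxic it went from -0.26 to 0.06 without Gel 1.

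Txnrd1 and Srxn1, which serve thiol repair, did not pass the test in any of the 3 comparisons either. Txnrd1 (Entrez 50493), the cytosolic thioredoxin reductase, was at 51.0, 47.9 and 48.1 CPM in Normoxic, 55.6, 54.2 and 51.9 CPM in PBS and 52.4, 51.9 and 54.0 CPM in Gel. Both OIR groups lay above Normoxic without overlap, by folds of 1.11 in PBS (95% interval 0.973 to 1.26, edgeR adjusted p = 0.345) and 1.08 in Gel (0.952 to 1.24, edgeR adjusted p = 0.602). Srxn1 (Entrez 76650), sulfiredoxin, which reactivates over-oxidised peroxiredoxins, was at 74.9, 70.5 and 68.1 CPM in Normoxic, 76.5, 70.5 and 95.5 CPM in PBS and 70.2, 86.1 and 86.4 CPM in Gel. PBS 3 was the highest, 1 library of each OIR group lay within the Normoxic range, and the groups overlapped. The PBS fold was 1.15 (0.923 to 1.43, edgeR adjusted p = 0.443).

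Gstm1 (Entrez 14862), a mu class glutathione transferase, was at 21.3, 20.7 and 13.1 CPM in Normoxic, 32.3, 32.1 and 44.7 CPM in PBS and 23.8, 25.7 and 34.5 CPM in Gel. Normoxic 3 was the lowest and PBS 3 the highest library, PBS and Gel each lay above Normoxic, and PBS and Gel overlapped. Gstm1 rose from 18.4 ± 4.55 to 36.4 ± 7.21 CPM in PBS (SD, n = 3), a log2 fold change of 1.00 ± 0.22 (SE, edgeR adjusted p = 0.0208) that lost its call without any 1 Normoxic library (0.053 to 0.0764 as edgeR adjusted p). In Gel it stood at 28.0 ± 5.73 CPM, with a log2 difference of 0.62 ± 0.22 from Normoxic (edgeR adjusted p = 0.222) and of -0.38 ± 0.22 from PBS (0.987). Gstm1 has close paralogs that the authors' counting could mix with it, and the sources used here do not say how such reads were assigned. The paralog Gstm5 was at 46.8 ± 4.23 CPM in Normoxic and 51.1 ± 21.6 CPM in PBS, and none of Gstm2, Gstm4, Gstm5, Gstm6 and Gstm7 passed the test.

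Nqo1 (Entrez 18104), the quinone reductase most widely used as an NRF2 target, was at 3.68, 3.63 and 2.29 CPM in Normoxic, 2.20, 2.08 and 6.36 CPM in PBS and 2.93, 2.86 and 3.71 CPM in Gel. PBS 1 and PBS 2 were the lowest of the 9 libraries and PBS 3 the highest. The PBS fold was 1.14 with a 95% interval of 0.604 to 2.14 (edgeR adjusted p = 0.817), and without PBS 3 the log2 difference turned from 0.19 to -0.59 (edgeR adjusted p = 0.296). Against PBS, Gel went likewise from -0.19 to 0.59 without PBS 3 (edgeR adjusted p = 0.704). PBS 3 also held the most pigment epithelium marker RNA of its group, at 205 CPM over the 7 markers against 58.9 in PBS 1 and 58.1 in PBS 2. Nqo1 was at 2.86 CPM in Gel 2, the library where those markers were highest (234 CPM), and the part of such tissue in the Nqo1 values was not tested.

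**Figure D2:**
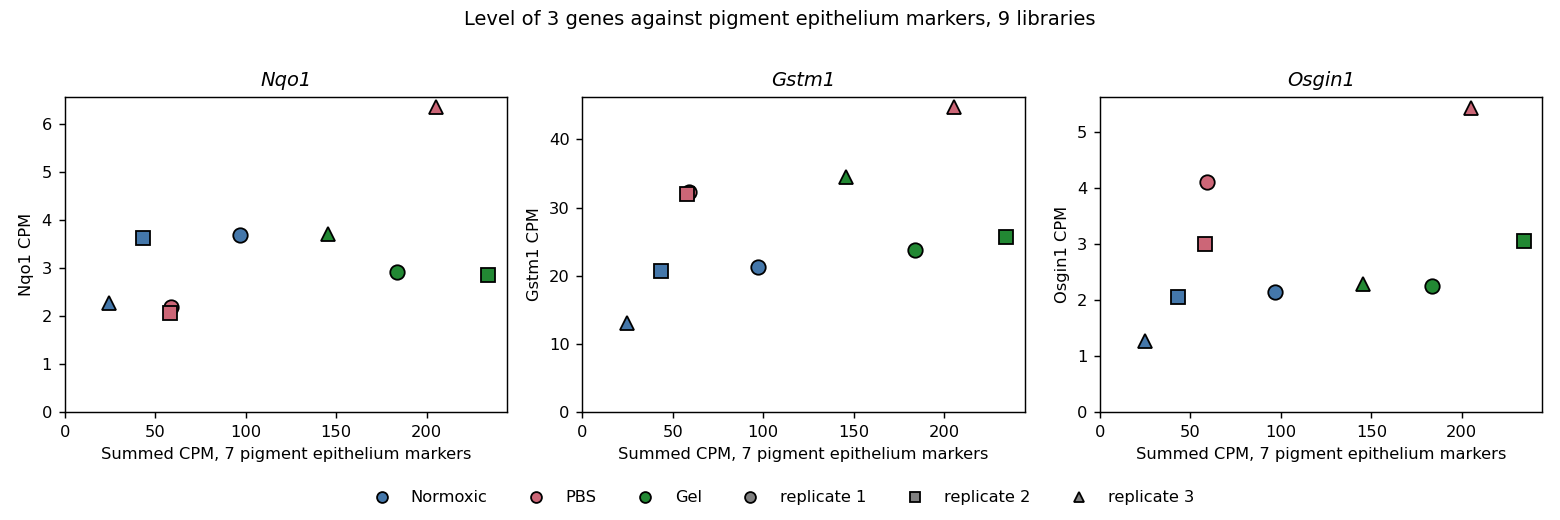
CPM of Nqo1, Gstm1 and Osgin1 (vertical axes) against the summed CPM of 7 pigment epithelium markers (horizontal axes) in the 9 libraries, coloured by group and with 1 symbol per replicate number. PBS 3 is the highest library for all 3 genes and Normoxic 3 holds the fewest marker counts (24.7 CPM), while the Gel libraries, at 146 to 234 CPM of markers, stay below PBS 3 for each gene.

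Osgin1 (Entrez 71839), an oxidative stress response gene that restrains growth, had the largest rise of the 10 and the fewest counts of those called (39 to 193 per library). It was at 2.15, 2.06 and 1.27 CPM in Normoxic, 4.11, 3.00 and 5.43 CPM in PBS and 2.26, 3.06 and 2.28 CPM in Gel. Normoxic and PBS did not overlap, Gel lay just above Normoxic (2.26 against 2.15 CPM at the nearest), and Gel 2 exceeded PBS 2. The rise in PBS was 1.22 ± 0.30 on the log2 scale (SE, edgeR adjusted p = 0.038), from 1.83 ± 0.482 to 4.18 ± 1.22 CPM (SD, n = 3). That call ended without any 1 of 7 libraries (all but PBS 2 and Gel 1, edgeR adjusted p up to 0.149) and in a fit of PBS and Normoxic alone (0.0698 as edgeR adjusted p). Gel stood at 2.53 ± 0.454 CPM, a log2 difference of -0.73 ± 0.30 from PBS, which missed the threshold (edgeR adjusted p = 0.842). On log2(FPKM + 1), whose pseudocount shrinks low genes, the rise in PBS was 0.64.

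**Figure D3:**
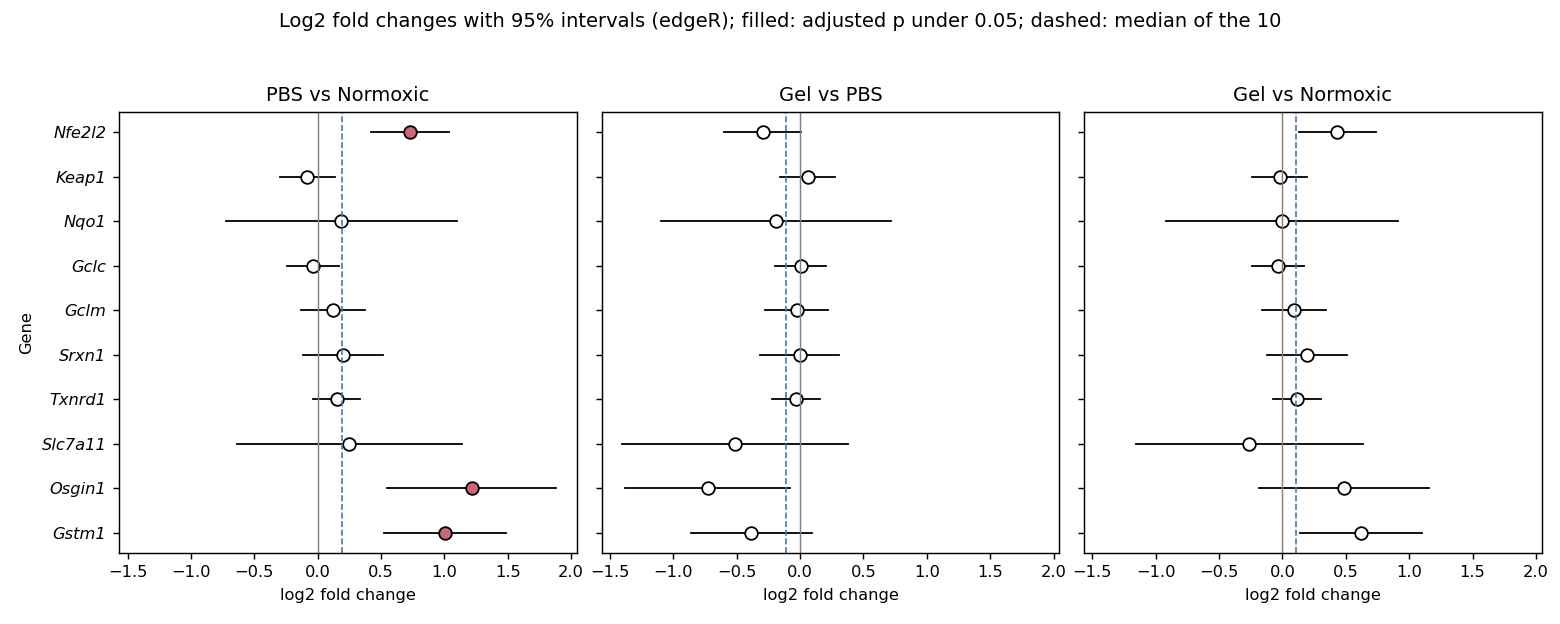
Log2 fold change on the horizontal axis with its 95% interval for each gene in PBS against Normoxic, Gel against PBS and Gel against Normoxic. Filled points passed edgeR at an adjusted p under 0.05 and the dashed line is the median of the 10 genes (0.19, -0.11 and 0.10), and only 3 points, all in the first panel, are filled.

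In PBS against Normoxic the median log2 fold change of the 10 genes was 0.19, beside 0.01 over all tested genes, and 8 of the 10 values were positive. An unadjusted edgeR p under 0.05 was found for the 3 called genes and for 21.4% of all genes. Groups did not overlap in CPM for 5 of the 10 genes, beside 29% of all genes. PBS was the higher group for 4 of these (14.9% of all genes) and the lower for Keap1 (14.1% of all genes). Leaving out 1 library left 0 to 3 of the 10 called: 0 without Normoxic 1 or Normoxic 2, and Nfe2l2 alone without Normoxic 3. Without PBS 3, the library that stood apart, Nfe2l2 (log2 0.61, edgeR adjusted p = 0.0125) and Gstm1 (0.79, adjusted p = 0.0286) were called and Osgin1 was not (0.95, adjusted p = 0.0963). With each library's trend along gene length removed, edgeR called Nfe2l2, Gstm1 and Osgin1 again, at log2 values of 0.74, 0.80 and 1.11. Markers of other cells were higher in PBS too. Microglia and macrophage markers summed to 59.7 to 66.9 CPM in Normoxic, 138 to 212 in PBS and 108 to 143 in Gel (5 of 8 called higher in PBS), and pericyte and smooth muscle markers to 112 to 129, 267 to 411 and 179 to 239 CPM (5 of 6). Astrocyte markers summed to 59.3 to 81.8 CPM in Normoxic, 285 to 452 in PBS and 145 to 190 in Gel (3 of 4), and Gfap, which reactive Müller glia also make, held 265 CPM of the PBS mean. No marker of these 3 lists was at 0 in all libraries. Neutrophil markers were at or near 0, at most 0.478 CPM in sum. The part of these cells in the 3 calls was not tested.

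In Gel against PBS, edgeR called 0 of the 10 genes, with 1 (Osgin1) at an unadjusted p under 0.05 beside 5.54% of all genes. DESeq2 and limma-voom called 0 of the 10 as well. The values of the 2 groups overlapped for all 10 genes, while 7.89% of all genes did not overlap (2.73% higher and 5.15% lower). The median log2 difference was -0.11, beside -0.01 over all tested genes, and the 3 genes called in PBS had log2 differences of -0.30 (Nfe2l2), -0.38 (Gstm1) and -0.73 (Osgin1). The 2 comparisons share the PBS libraries, so these values are not independent of the rise. The 95% interval allows a Gel fold of 0.661 to 1.00 for Nfe2l2, 0.552 to 1.06 for Gstm1 and 0.384 to 0.947 for Osgin1.

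In Gel against Normoxic, edgeR called 0 of the 10 genes, with 2 of the 10 (Nfe2l2 and Gstm1) at an unadjusted p under 0.05 beside 13.2% of all genes. DESeq2 and limma-voom called 0 of the 10 too. Gel 1, which stood apart, was the lowest Gel library for Nfe2l2, Keap1, Gstm1, Osgin1, Srxn1 and Slc7a11. The margin was small for Keap1 (80.0 against 80.3 CPM in Gel 2) and Osgin1 (2.26 against 2.28 CPM in Gel 3). Without Gel 1 edgeR called 0 of the 10 in both Gel comparisons. The log2 differences from Normoxic were then 0.52 (Nfe2l2), 0.73 (Gstm1) and 0.57 (Osgin1), and those from PBS were -0.21, -0.28 and -0.65 in the same order. Gel was higher without overlap for 4 of the 10 genes (Nfe2l2, Gstm1, Osgin1 and Txnrd1), beside 11.1% of all genes, and lower for 0, beside 12.8% of all genes (23.9% in either direction). The fold was 1.35 for Nfe2l2 (95% interval 1.09 to 1.67), 1.54 for Gstm1 (1.10 to 2.14) and 1.40 for Osgin1 (0.878 to 2.23).

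**Figure D4:**
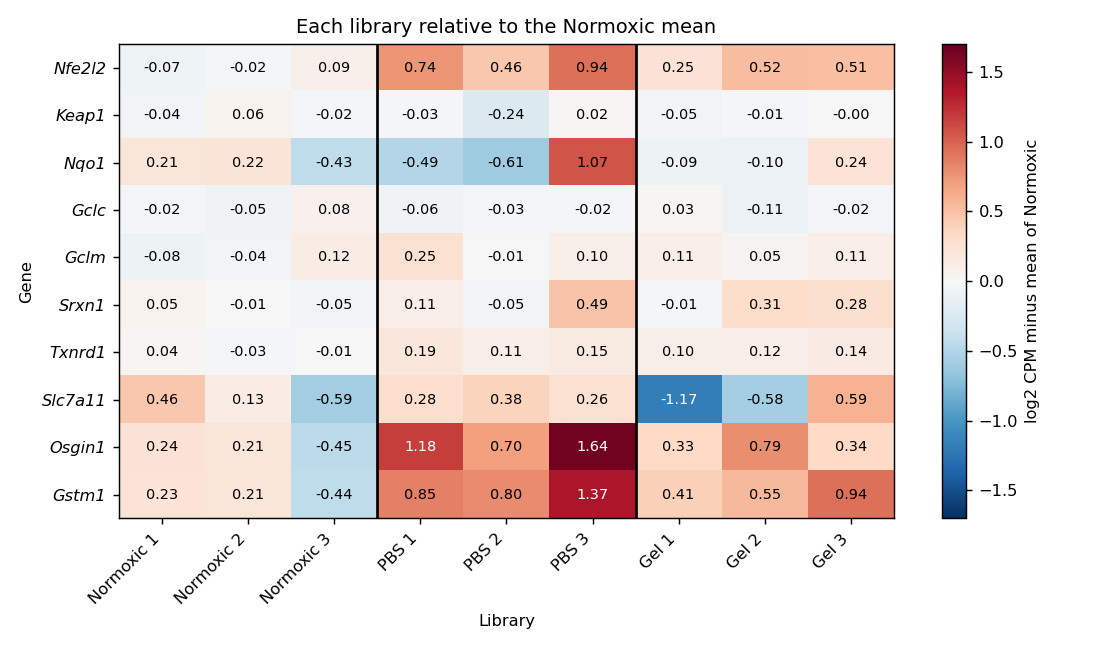
Log2 CPM of each gene (rows) in each library (columns) minus the mean of the 3 Normoxic libraries, with black lines between the groups. Nfe2l2, Osgin1 and Gstm1 are above 0 in all 6 OIR libraries, Keap1 and Gclc stay within -0.24 and 0.08 in all 9, and Nqo1 and Slc7a11 lie on both sides of 0 within the Normoxic and the Gel group.

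Across the 9 libraries the 3 called genes followed each other, and Nfe2l2 and Txnrd1 did too. Pearson's r of log2 CPM was 0.89 for Osgin1 and Gstm1, 0.87 for Nfe2l2 and Osgin1 and 0.85 for Nfe2l2 and Gstm1, while it was -0.07 for Nfe2l2 and Keap1 and 0.25 for Nfe2l2 and Nqo1. Txnrd1 followed Nfe2l2 at 0.88, over a small range. These values describe libraries that share groups and depth. With group means removed, r was 0.71 for Osgin1 and Gstm1, 0.53 for Nfe2l2 and Osgin1, 0.39 for Nfe2l2 and Gstm1 and 0.35 for Nfe2l2 and Txnrd1. The highest values were then those of Nfe2l2 and Srxn1 (0.87), Nqo1 and Gstm1 (0.84), Nqo1 and Srxn1 (0.83) and Nfe2l2 and Keap1 (0.82). PBS 3 was the highest PBS library for Nqo1, Gstm1 and Srxn1. Relative to the Normoxic mean, log2 CPM of Nqo1 was -0.49, -0.61 and 1.07 in PBS libraries 1 to 3. In the same order it was 0.85, 0.80 and 1.37 for Gstm1 and 0.11, -0.05 and 0.49 for Srxn1. The correlations were not recomputed without PBS 3. Among 11577 other genes with at least 5 CPM, the 3 most like Nfe2l2 over the 9 libraries were Prss23 (r = 0.996), a secreted protease, Cd9 (0.995), a tetraspanin, and Csrp1 (0.989), a LIM domain protein. Those most like Osgin1 included Blvrb, a biliverdin reductase (0.977), and Mbd2 (0.975), and those most like Gstm1 were Tprkb (0.974), Tnfrsf21 (0.971) and Vps4b (0.967).

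The wider pathway was read from 8 lists by role. edgeR, fitted to all 9 libraries, called 4.31% of all tested genes higher in PBS than in Normoxic, gave 21.4% an unadjusted p under 0.05, and called no list gene lower in that comparison. Of 13 further regulators of NRF2, edgeR called 2 higher in PBS (median log2 0.10, beside 0.01 over all tested genes, as for each list below): the small MAF partners Maff, from 0.709 ± 0.374 to 4.32 ± 2.19 CPM (SD, n = 3, adjusted p = 0.00831), and Mafk, from 7.18 ± 0.793 to 11.3 ± 1.58 CPM (adjusted p = 0.0304). The call of Maff ended without Normoxic 1, and that of Mafk without any 1 Normoxic library, PBS 1, Gel 2 or Gel 3, in a fit of the 2 groups alone and on both FPKM scales. The third small MAF gene, Mafg, was at 171 ± 12.8 CPM in Normoxic and 118 ± 41.2 CPM in PBS (log2 -0.53 ± 0.24, edgeR adjusted p = 0.231). Sqstm1, which encodes p62, a protein that draws KEAP1 away, was at 339 ± 2.30 and 408 ± 50.5 CPM (edgeR adjusted p = 0.246). These 2 were named after their values were seen.

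Around glutathione, 3 of 15 genes rose in PBS (median log2 0.52): Gpx3, the secreted glutathione peroxidase, 3.56-fold (edgeR adjusted p = 0.0091), Ggt5, a gamma-glutamyl transferase that acts on glutathione conjugates, 2.49-fold (0.038), and Slc3a2, the heavy chain that partners the Slc7a11 transporter, 1.51-fold (0.0279). Slc3a2 went from 138 ± 5.42 to 206 ± 37.1 CPM while Slc7a11 itself did not pass the test. Gpx3 stood at 8.52 ± 2.07 CPM in Normoxic, 30.0 ± 7.15 in PBS and 11.1 ± 4.87 in Gel, with Gel below PBS without overlap (log2 -1.44 ± 0.33, edgeR adjusted p = 0.489). Of 16 thioredoxin and peroxiredoxin genes, 2 rose (median 0.37). They were Txnip, which binds and inhibits thioredoxin, from 14.0 ± 2.03 to 53.8 ± 19.4 CPM (edgeR adjusted p = 0.00117), and Prdx4, a peroxiredoxin of the endoplasmic reticulum, 2.35-fold (0.0363). Txnip stood at 56.7 ± 5.17 CPM in Gel and was called there against Normoxic too (adjusted p = 0.00305). Its call in both comparisons held in all 19 alternatives, while leaving out any 1 Normoxic library, PBS 3 or Gel 2 ended that of Prdx4, as did limma-voom, a fit of the 2 groups alone and both FPKM scales. The log2 value of Prdx4 went from 1.23 to 0.82 without PBS 3.

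Of 30 further glutathione transferase and detoxification genes, 24 passed the filter and 3 of these rose in PBS (median 0.21). They were Mgst1, a membrane-bound transferase (3.48-fold, edgeR adjusted p = 0.0134), Ephx1, an epoxide hydrolase (2.29-fold, 0.0191), and Abcc3, an exporter of conjugates (4.22-fold, 0.0106). Abcc3 was a low gene, with a mean below 1 CPM over the 9 libraries. Of 8 genes of NADPH supply, edgeR, DESeq2 and limma-voom called 0 (median 0.19), with 1 at an unadjusted edgeR p under 0.05. Of 6 genes of superoxide and peroxide removal, the same tools called 0 (median 0.30), with 2 at an unadjusted p under 0.05. Of 8 heme and iron genes, Hmox1 and Blvrb, both enzymes of heme breakdown, rose 19.0-fold and 2.23-fold (edgeR adjusted p = 0.000518 and 0.0205), and the median was 0.38. Hmox1 was at 2.55 ± 0.243 CPM in Normoxic, 47.9 ± 33.6 in PBS and 7.70 ± 0.307 in Gel (SD, n = 3). Without PBS 1 its log2 fold change in PBS went from 4.25 to 3.54, with the call kept. Red blood cell markers summed to 46.1 to 50.5 CPM in Normoxic, 153, 46.6 and 198 in PBS libraries 1 to 3 and 31.1 to 46.1 in Gel, and the part of blood in the Hmox1 values was not tested. Of 12 genes of the amino acid response driven by ATF4, which also acts on Slc7a11, 4 rose (median 0.44): Trib3, Ddit3, Slc7a5 and Slc3a2, by 1.51-fold to 1.72-fold. Leaving out 1 library left 0 to 4 calls per list in PBS against Normoxic. Besides the calls of Maff, Mafk and Prdx4 (above), more list calls ended without a single library. Those of Slc3a2 and Slc7a5 ended without any 1 Normoxic library, and that of Ggt5 without any 1 Normoxic or PBS library. Those of Gpx3 and Abcc3 ended without Normoxic 3, and those of Mgst1, Blvrb and Trib3 without Normoxic 1 or 3. The calls of Ephx1 (Normoxic 2 or 3) and Ddit3 (Normoxic 1 or 2) ended likewise. That of Slc3a2 also ended in a fit of the 2 groups alone and that of Ggt5 on log2(FPKM + 1). On that scale the log2 values of Maff, Ggt5 and Abcc3 were 0.91, 0.42 and 0.25. In every list but the NRF2 regulators, PBS 3 had the highest summed CPM in PBS. NADPH supply summed to 894 to 911 CPM in Normoxic and to 817, 813 and 1044 in PBS libraries 1 to 3. Superoxide and peroxide removal stood at 365 to 399, then 393, 407 and 587 CPM. Detoxification stood at 336 to 367.5, then 348, 367 and 521.5 CPM. In the glutathione, thioredoxin, heme and ATF4 lists every PBS sum lay above Normoxic. List medians were not recomputed without PBS 3.

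**Figure D5:**
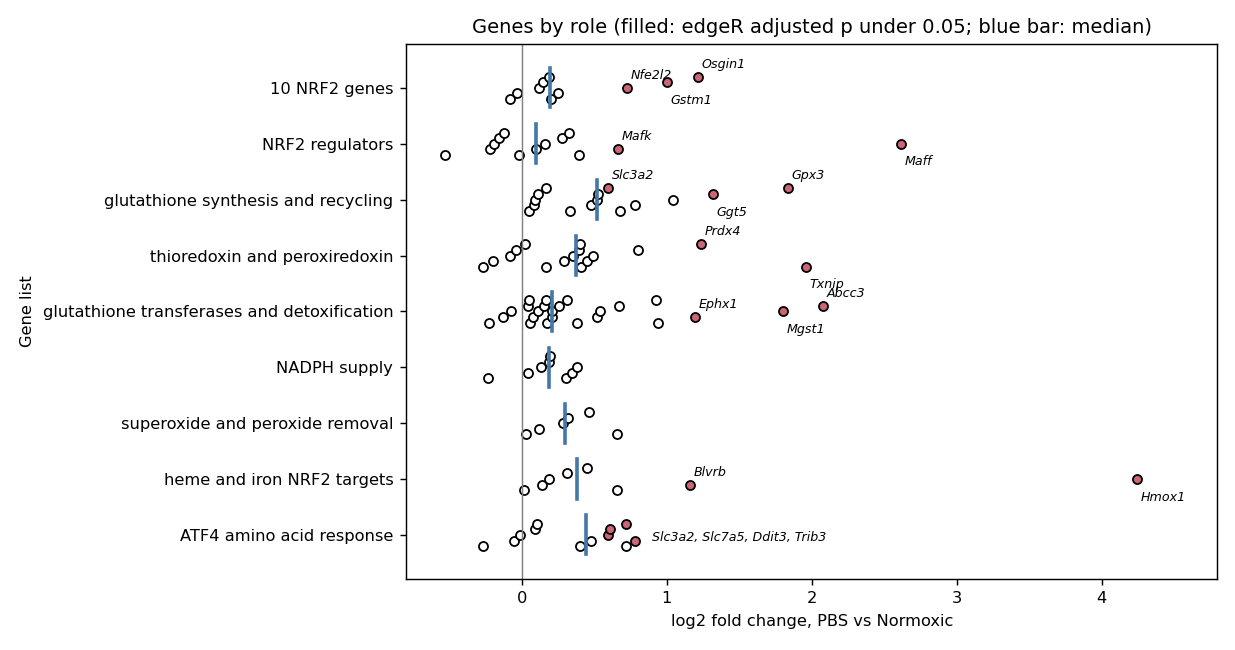
Log2 fold change in PBS against Normoxic (horizontal axis) of each kept gene in the 10-gene set and 8 lists (rows). Filled points passed edgeR at an adjusted p under 0.05, blue bars are medians, and Hmox1, at 4.25, is the largest value.

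In Gel against PBS edgeR called 0 genes of the 8 lists, with 0 to 3 per list at an unadjusted p under 0.05 beside 5.54% of all genes, while DESeq2 called Gpx3 and Hmox1 lower. The log2 difference of Hmox1 was -2.64 ± 0.40 (edgeR adjusted p = 0.166), with no overlap between the groups, and edgeR called it without any 1 of the 3 PBS libraries (-2.99 to -1.93). With no filter on low counts edgeR called Gpx3 and Hmox1 lower as well. In Gel against Normoxic edgeR called Txnip, Ddit3 and Slc7a5 higher, beside 1.12% of all genes, and DESeq2 called 0 to 4 per list. Slc7a5, an importer of large amino acids that also pairs with Slc3a2, went from 95.3 ± 6.30 CPM in Normoxic to 168 ± 27.0 CPM in Gel (SD, n = 3, edgeR adjusted p = 0.00989), and its call ended without Normoxic 1 or 2. That of Ddit3 (adjusted p = 0.0466) ended without any 1 library but PBS 3 and Gel 3, and with limma-voom, a mean of at least 1 CPM as the filter and both FPKM scales.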

How the data were processed

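The deposited count table gives whole-number counts per gene and library, made by the authors. The submitters' processing notes list RSEM 1.3.1, Bowtie2, build GRCm39 and DESeq2 1.4.5 without saying what each did, so the counts may be rounded RSEM estimates. The authors' deposited FPKM equal the counts divided by library total and 1 length per gene (relative spread at most 2.89e-10), so they add gene length only. Counts were analysed in R 4.3.3 with edgeR 4.0.16: filterByExpr (minimum count 10) kept 17362 of 26683 genes (65.1%), libraries were scaled by TMM, and the quasi-likelihood F test used all 9 libraries in 1 fit by group. Benjamini-Hochberg adjustment covered every kept gene, and a gene is called at an adjusted p under 0.05. SE is the absolute log2 fold change over the root of F, and 95% intervals use its t quantile. CPM are per library total and are given as mean ± SD. Correlations used log2 CPM with a prior count of 2. Alternatives used DESeq2 1.42.0, limma 3.58.1, other filters, a replicate block, a gene length offset, FPKM with pseudocounts of 0.1 and 1, and each library left out. The test was tried on simulated data, but the outcome is not given here, so its rate of missed changes is not stated.

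The 10 genes are always named, with list genes that edgeR called (at most 4 per list and comparison) and the 3 genes most correlated with Nfe2l2 and each called member, of which 1 is not reported here. Members and lists were chosen with earlier results of these data known. Promoters are RefSeq's (GRCm38.p6) and share no coordinates with the counts. No replicate pair agreed within sampling noise (chi-square per degree of freedom at least 7.68), and all libraries carry 1 batch date.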

Additional observations from a re-analysis of the deposited data

How the results depend on the processing

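The call counts and the log2 fold changes of the 10 genes and of the genes named by rule were recomputed under 10 settings and without each of the 9 libraries (Abcc3 had no value with a mean of at least 1 CPM as the filter). List calls were recomputed with DESeq2, limma-voom and each library left out. Marker sums, list medians, correlations, Mafg, Sqstm1 and the Gstm1 paralogs were not. Of the 10 genes, 3 were called in PBS against Normoxic under 8 of the settings and 2 under the others (a fit of the 2 groups alone and the replicate block, which lost Osgin1), and 0 to 3 without 1 library. In the other comparisons 0 of the 10 were called under each of these. Over all genes, PBS against Normoxic gave 1101 calls, 1936 with the DESeq2 test and 455 to 1184 without 1 library. Gel against PBS gave 0, but 64 with the DESeq2 test, 24 with no filter, 3 with the length trend removed and 0 to 12 without 1 library. Gel against Normoxic gave 245, but 854 with the DESeq2 test, 389 with no filter, 643 with only the 2 groups, 436 with the length trend removed and 47 to 735 without 1 library (735 without PBS 3). The causes were not tested.

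Replicate numbers are shared in the labels, but same-numbered libraries did not deviate together in every pair (r of -0.0712 to -0.0532 for PBS and Normoxic, 0.326, -0.209 and 0.362 for Gel and PBS, -0.0993 to -0.0394 for Gel and Normoxic), and not every library correlated best with its own number. With the replicate number as a block, 1050, 0 and 227 genes were called in the 3 comparisons, and the calls of Osgin1 (edgeR adjusted p = 0.0628) and Mafk in PBS against Normoxic and of Ddit3 in Gel against Normoxic were lost.

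None of the log2 differences that changed sign had been called. Srxn1 in Gel against PBS (-0.0033) was 0.0013 with DESeq2 size factors and with the DESeq2 test, 0.0076 with limma-voom, 0.0021 with no filter, 0.0039 with the replicate block, 0.0090 with the length trend removed, 0.0070 and 0.0066 on FPKM with pseudocounts of 0.1 and 1, and -0.108 to 0.169 without 1 library. Nqo1 was -0.0098 in PBS against Normoxic on FPKM + 0.1 (-0.595 to 0.462 without 1 library). In Gel against PBS it was 0.0058 with limma-voom and 0.014 on FPKM + 0.1 (-0.469 to 0.594), and in Gel against Normoxic 0.017, 0.0037 and 0.0045 with limma-voom, no filter and FPKM + 0.1 (-0.188 to 0.101). Gclm in Gel against PBS was 0.031 with the length trend removed (-0.083 to 0.045 without 1 library). Without 1 library, signs also changed for Gclc (-0.068 to 0.0034 in PBS against Normoxic, -0.025 to 0.040 in Gel against PBS, -0.062 to 0.0097 in Gel against Normoxic), Keap1 (-0.0075 to 0.118 in Gel against PBS, -0.042 to 0.0087 in Gel against Normoxic), Slc7a11 (-0.919 to 0.058 in Gel against Normoxic) and, in Gel against PBS, Txnip (-0.159 to 0.416), Slc3a2 (-0.138 to 0.143) and Ddit3 (-0.156 to 0.085).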
